A study of Rattus norvegicus with 24 samples.

Results

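The 57 mitosis and cytokinesis genes described here are mitotic cyclins, kinases, motor proteins, kinetochore parts, condensins and cytokinesis factors, listed by gene symbol. A gene was followed through the brightest probe set (a group of short probes for 1 transcript) that carries its symbol alone, provided that its mean log2 signal over all arrays reached the 40th percentile of all probe sets, 6.19. By that rule 48 of the 57 genes were measured, out of 10643 genes measured on the array. Cenpe, Parpbp and Pimreg lay below the threshold, and Nek2, Ndc80, Kif4a, Tpx2, Anln and Ncapg had no probe set of their own. Of the 48, 40 also reached the threshold in the control arrays alone. The 8 that did not, Pttg1, Kif18b, Aurka, Espl1, Ttk, Ccna2, Kif20b and Bub1b, passed through arrays of the treated groups, so counts over the 48 are descriptions of the genes that passed and not of the whole list.

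The samples were total RNA of thyroids from male adult rats of the Sprague-Dawley strain, each read on 1 of 24 Affymetrix arrays, in 8 groups of 3. Control rats received normal diet and normal water, and 3 treatments were set against them: perchlorate in the water with normal diet, dosed as 95 mg potassium perchlorate in each liter; an iodine-deficient diet with normal water; and the deficient diet together with perchlorate. Each of the 4 regimes was sampled at 2 times, named here day 1 and day 14. The deficient diet had by then been fed for 2 months plus 1 or 14 days, and perchlorate had been given for 1 or 14 days. The design sets out to measure the change caused by the diet against normal feed and by perchlorate against normal water. The labels do not say whether each sample was a separate animal; the p-values then reflect the spread among samples alone, and part of that spread may be technical. The replicates below are named by the sample numbers in the labels.

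Dividing cells switch on a shared set of genes late in the cell cycle. Cyclins A and B activate the kinase Cdk1, the Aurora and Polo kinases and the kinesin motors build the spindle, the kinetochore couples chromosomes to it, the checkpoint holds separation back until all are attached, and the midzone proteins then cut the cell apart. Follicular cells of the adult thyroid rarely divide. When iodide is scarce, or when perchlorate blocks its entry through the sodium iodide symporter, thyroid hormone falls, thyrotropin rises, and the gland enlarges, with division of follicular and blood vessel cells. In a whole gland, a larger share of dividing cells and more message per cell cannot be told apart.

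All 24 arrays carried thyroid messages at a high level: thyroglobulin, Tg, lay between 13.48 and 13.98 on the log2 scale, and the thyroid transcription factor Pax8 between 12.19 and 12.91. Arrays differed in tissue that is not follicular. The mean of 9 measured thymocyte and lymphocyte markers was 10.57 in day 1 perchlorate replicate 15 and 8.96 in replicate 18, 9.43 in day 14 diet plus perchlorate replicate 29 and 8.50 in day 14 diet replicate 32, against 6.79 to 7.71 in the other 20 arrays. The T cell receptor genes Cd3g (11.54) and Cd3d (10.74) were highest in replicate 15. Arrays with the lowest quality weights were day 1 perchlorate replicate 18 (0.065) and day 1 control replicate 22 (0.266), and each comparison was also run without that pair.

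Genes of this kind often share promoter features, which are shown first as a description. Whether they bear on the changes below was not tested. The cell cycle homology region, TTTGAA, is a hexamer through which the MuvB complex, with B-Myb and Foxm1 or with Rb family proteins, acts on late cell cycle genes. CCAAT, the box bound by the factor NF-Y, often lies upstream of it. Both were searched on both strands (the other strand reads TTCAAA and ATTGG) in RefSeq windows from 250 bases before to 50 after each gene start in the GRCr8 assembly. Windows were found for 49 of the 57 members, and not for Ccna2, Aurkb, Tpx2, Racgap1, Ube2c, Pbk, Foxm1 and Pimreg. A TTTGAA match lay between 100 bases before and 50 after the start in 32 of the 49 members (65.3%), against 1464 of 19005 protein-coding genes (7.7%). In the full 300 bases the shares were 69.4% and 18.1%. At least 1 CCAAT was present in 36 members (73.5%, against 39.8%), and 2 or more in 25 (51%, against 13%). Both motifs together, with TTTGAA near the start, were present in 25 members (51%, against 3.4%). Matches are descriptions of letters in these windows and not measured binding sites.

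The 150 bases before the start are printed for 7 members, with every match of either motif in capitals. Cdk1, Prc1, Top2a, Mki67 and Kif22 are shown as genes called higher with diet and perchlorate at day 14, Aspm as a member with 4 CCAAT boxes there, and Melk, which had the smallest p-value of all members in that comparison, as one with neither motif there. Positions in GRCr8 are chr20:19265143-19265292 on the plus strand for Cdk1, chr1:143659331-143659480 plus for Prc1, chr10:84473094-84473243 minus for Top2a, chr1:199952594-199952743 minus for Mki67, chr1:191080879-191081028 minus for Kif22, chr13:53625434-53625583 plus for Aspm and chr5:63336001-63336150 plus for Melk. Each is written 5′ to 3′ on the gene's own strand and ends at the base before the start.
Cdk1: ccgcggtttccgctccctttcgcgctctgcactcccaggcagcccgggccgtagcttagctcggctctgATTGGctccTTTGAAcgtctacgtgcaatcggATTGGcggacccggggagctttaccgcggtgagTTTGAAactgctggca
Prc1: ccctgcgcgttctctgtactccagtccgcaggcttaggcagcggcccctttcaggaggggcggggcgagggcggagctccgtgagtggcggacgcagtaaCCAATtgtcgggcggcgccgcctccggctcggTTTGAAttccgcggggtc
Top2a: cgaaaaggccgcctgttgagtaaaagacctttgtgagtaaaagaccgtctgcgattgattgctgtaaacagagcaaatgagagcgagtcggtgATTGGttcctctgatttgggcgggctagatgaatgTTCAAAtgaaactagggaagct
Mki67: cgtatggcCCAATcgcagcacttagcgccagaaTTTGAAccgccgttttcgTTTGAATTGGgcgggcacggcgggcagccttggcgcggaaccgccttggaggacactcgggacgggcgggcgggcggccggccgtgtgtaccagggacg
Kif22: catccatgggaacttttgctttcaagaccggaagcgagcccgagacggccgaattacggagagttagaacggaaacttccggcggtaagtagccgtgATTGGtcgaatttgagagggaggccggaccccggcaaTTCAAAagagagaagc
Aspm: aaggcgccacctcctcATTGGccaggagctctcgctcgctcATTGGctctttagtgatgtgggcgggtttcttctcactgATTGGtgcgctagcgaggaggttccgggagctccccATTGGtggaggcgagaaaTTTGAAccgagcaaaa
Melk: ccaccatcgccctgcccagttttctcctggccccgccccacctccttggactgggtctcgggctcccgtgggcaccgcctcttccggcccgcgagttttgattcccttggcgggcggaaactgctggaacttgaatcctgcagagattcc

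In the Cdk1 stretch 2 hexamers and 2 boxes alternate, and in Mki67 1 hexamer and 1 box share bases. Prc1, Top2a and Kif22 hold 1 of each. Across the 51 windows of the 49 members, the hexamer was most frequent in the last 25 bases before the start (23.5% of windows, against 1.18% of 21851 windows of all protein-coding genes), and the box between 100 and 75 bases before it (31.4%, against 6.59%). No member window had a box starting in the last 25 bases before the start, where 3.37% of all windows had one.

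**Figure D1:**
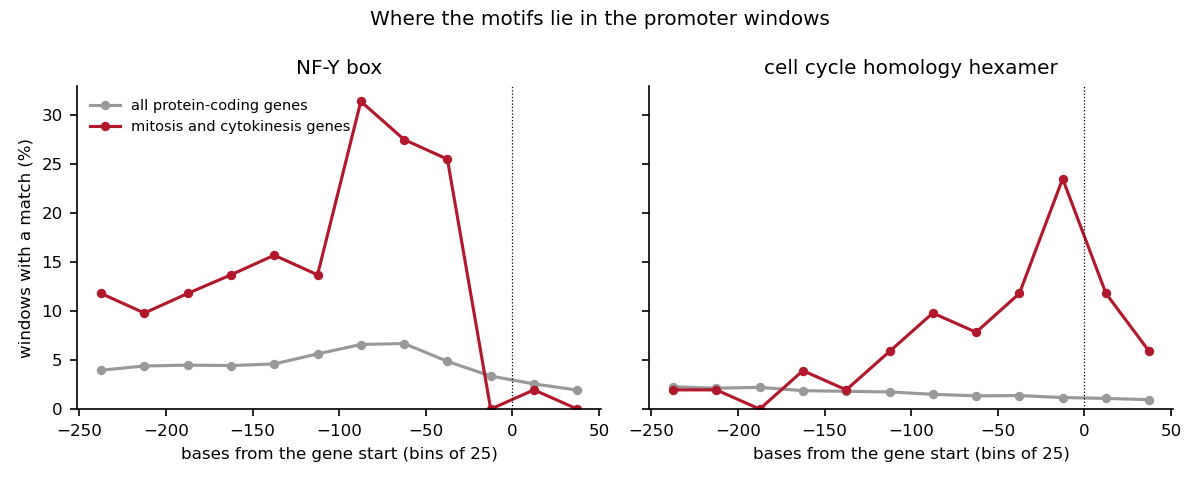
Share of promoter windows (%) with a match that starts in each bin of 25 bases, by distance from the gene start, for the NF-Y box (left) and the cell cycle homology hexamer (right). The 51 windows of members (red) peak at 31.4% for the box between 100 and 75 bases before the start and at 23.5% for the hexamer just before it, above the 21851 windows of all protein-coding genes (grey).

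At day 14 the mitosis and cytokinesis genes were highest in the thyroids given both treatments. Of the 48, 39 were called higher against the day 14 control at an adjusted p under 0.05, and 0 were called lower. Over all probe sets 6.1% were called higher. With the filter on the control arrays alone, 33 of the 40 members left were called higher (5.45% of probe sets). The median log2 fold change of the 48 was 1.58, which is 2.99-fold, against -0.06 over all probe sets. In 44 of the 48 all 3 treated arrays lay above all 3 controls, which held for 16.2% of probe sets. Every one of the 48 had a positive log2 fold change, from 0.03 in Smc4 to 2.68 in Mki67. The combined group had the highest mean of the 4 day 14 groups in 47 members, and the control the lowest in 47.

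Perchlorate alone for 14 days was followed by a smaller count: 15 of the 48 were called higher (2.9% of all probe sets) and 0 lower. The median log2 fold change was 1.12, or 2.17-fold. With the filter on the control arrays alone, 11 members were called higher (2.6% of probe sets). Between the perchlorate and control arrays 42 members did not overlap, all higher with perchlorate, against 12.6% of probe sets. All 15 called members were also called with both treatments, where they make 38.5% of the 39. These comparisons share the control arrays, so the second count is not independent of the first.

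The deficient diet alone at day 14 gave 0 calls among the 48 (0.193% of all probe sets were called higher), although 33 had an unadjusted limma p under 0.05. Of all 18625 probe sets, 1772 had such a p, in either direction. All 48 differences were positive, with a median of 1.08, or 2.11-fold, and in 39 members the diet arrays lay above all control arrays (10.6% of probe sets). The smallest adjusted p was 0.0515, for Cdkn3 at 1.72 (SE 0.38). The median half-width of the 95% interval was 0.76, so a typical gene had to differ by more than that to reach an unadjusted p under 0.05.

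These counts differed between fits of different arrays. The median SD of the 48 members within a group was 0.58 to 0.69 in the treated groups of day 1 and 0.23 to 0.36 in the other 5 groups, while over all probe sets it was 0.14 to 0.44. All 8 groups share 1 estimate. In a fit of the 12 day 14 arrays alone, an alternative added after the values were seen, 27 members were called higher with the diet (2.67% of all probe sets), 36 with perchlorate (6.49%) and 42 with both (10.6%). In fits of only the 2 groups compared the counts were 26 (2.02%), 32 (4.77%) and 43 (9.86%). Single arrays mattered as well, though the share of all probe sets called in those fits is not given here. The combined group's count was 23 without replicate 27. The perchlorate count fell to 1 without control replicate 47 and to 4 without control replicate 43. It was 7, 4 and 2 without perchlorate replicates 39, 40 and 42.

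**Figure D2:**
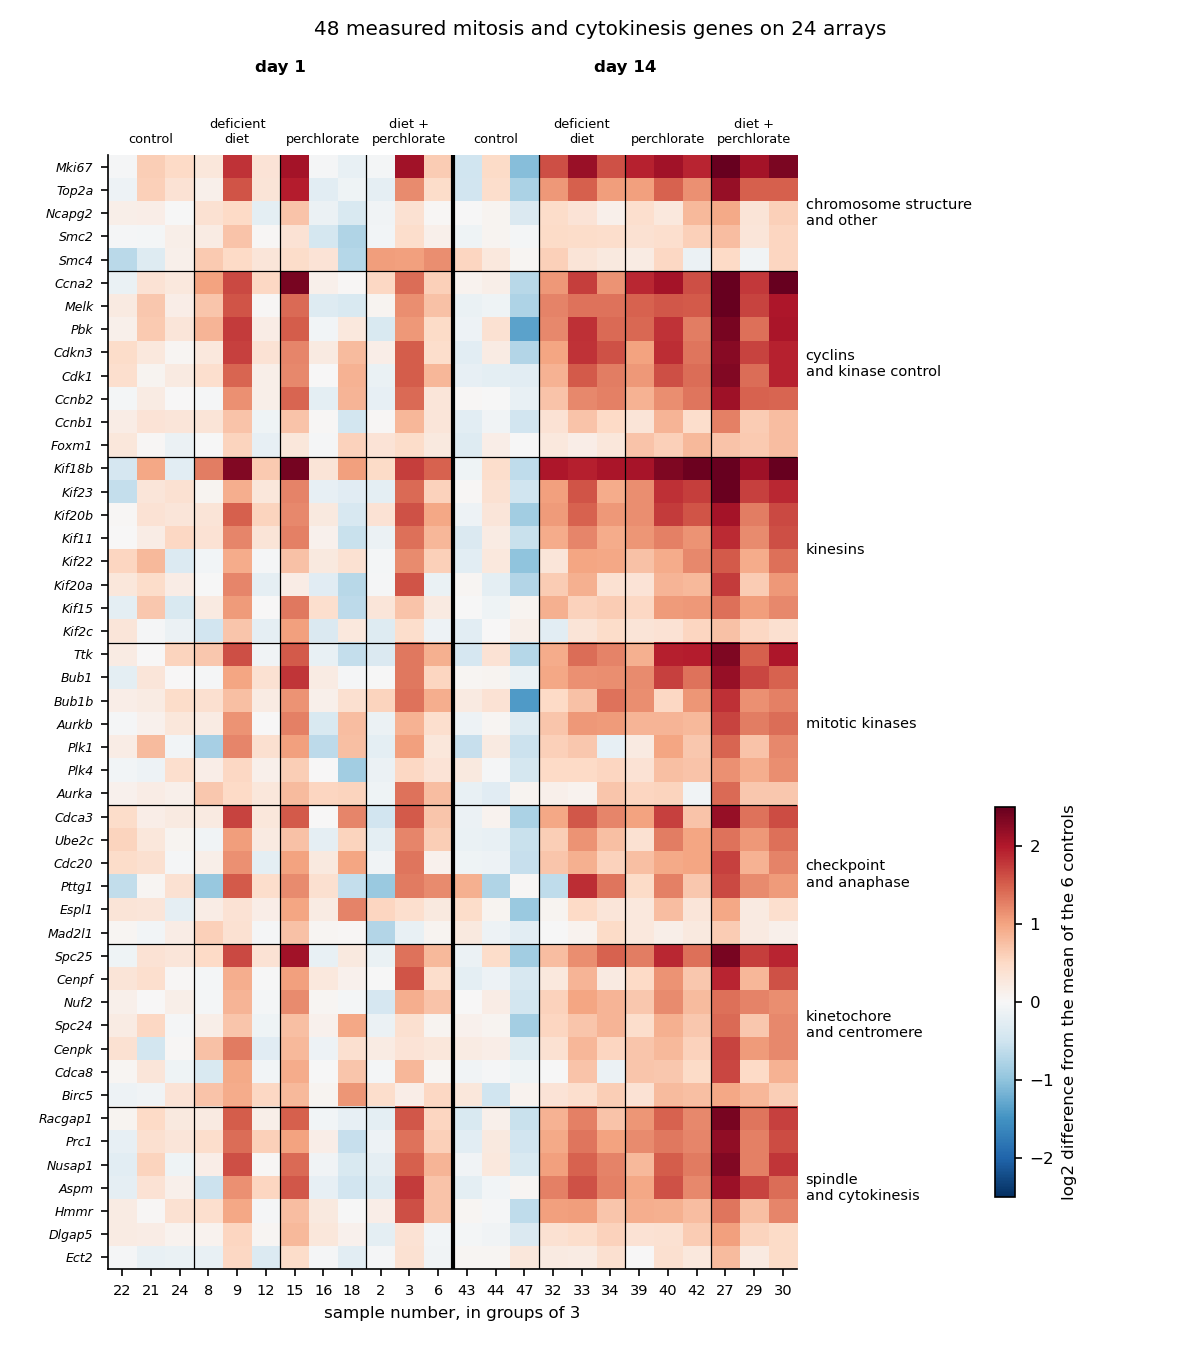
Each cell is the log2 value of 1 measured member (rows, by role) on 1 array (columns, by group), minus the mean of the 6 control arrays, with the colour capped at 2.5 either way. The 9 treated arrays of day 14 are red for nearly all members, replicate 27 most of all. At day 1, 1 array of each treated group (9, 15 and 3) is red for most members. Replicate 6 of the combined group lies between, with 27 of 48 members above every control. The same share over all probe sets is not given here.

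Among the cyclins and kinase partners, all 8 measured members were called higher with both treatments and 6 with perchlorate alone. Cdk1, the kinase that drives entry into mitosis, was at 7.17, 7.14 and 7.12 in the day 14 controls and at 9.69, 8.78 and 9.30 with both treatments. It was at 8.46, 9.0 and 8.78 with perchlorate and at 8.26, 8.92 and 8.66 with the diet. No treated array of day 14 reached down to a control, and the SD of the controls was 0.02. The log2 fold change was 2.12 with both (SE 0.37, 4.34-fold, adjusted p = 0.000955), 1.61 with perchlorate (adjusted p = 0.0158) and 1.47 with the diet (adjusted p = 0.0903). The perchlorate call of Cdk1 was lost in 5 of 17 alternatives, each a fit without 1 array.

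Ccna2, cyclin A2, was at 5.83, 5.89 and 5.04 in controls, below the general threshold of signal, and at 8.47, 7.50 and 8.29 in the combined arrays. Perchlorate arrays lay at 7.63, 7.82 and 7.35 and diet arrays at 6.83, 7.47 and 6.86, so the group means were ordered control, diet, perchlorate, both, while neighbouring treated groups overlapped. The log2 fold change was 2.50 with both (adjusted p = 0.00136) and 2.01 with perchlorate (adjusted p = 0.015). Ccna2 passed the threshold only through treated arrays, so these values are not a measure of the fold. Its perchlorate call was lost in 3 of 16 alternatives, each a fit without 1 array. Ccnb1, cyclin B1, rose from 7.49, 7.66 and 7.26 in controls to 9.0, 8.38 and 8.52 with both, a log2 fold change of 1.16 (adjusted p = 0.00748). With perchlorate Ccnb1 was at 8.06, 8.59 and 8.18, and with the diet at 8.11, 8.46 and 8.25, without overlap with the controls but without a call. Its call with both treatments was lost without replicate 27, and a second, dimmer probe set gave 1.53 (adjusted p = 0.00363).

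Melk, a kinase abundant in dividing progenitor cells, had the smallest p-value among the members with both treatments, 2.45 (SE 0.40, 5.48-fold, adjusted p = 0.000571). Its 3 controls were at 6.81, 6.88 and 6.21 and its combined arrays at 9.57, 8.67 and 9.01, and the diet (8.22, 8.34, 8.35) and perchlorate (8.45, 8.53, 8.51) arrays formed tight clusters between them. Cdkn3, a phosphatase that takes the activating phosphate off cyclin-dependent kinases, went from 6.52, 6.99 and 6.06 to 9.06, 8.47 and 8.71 (2.22, adjusted p = 0.000847), and stood at 1.66 with perchlorate (adjusted p = 0.0157). Pbk, a mitotic kinase, was at 6.90, 7.42 and 5.69 in controls and at 9.41, 8.42 and 9.08 with both (2.30, adjusted p = 0.00269). The lowest control of Melk, Cdkn3 and Pbk was replicate 47 each time. Without it, or without perchlorate replicate 42, the perchlorate calls of Melk, Cdkn3 and Pbk were lost.

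Foxm1, the transcription factor that drives late cell cycle genes, had a small difference. Controls were at 6.56, 7.06 and 6.87, the combined arrays at 7.60, 7.55 and 7.66, and the perchlorate arrays at 7.59, 7.48 and 7.70. The diet arrays, at 7.15, 7.05 and 7.17, overlapped the controls and lay below every perchlorate array. The log2 fold change was 0.77 with both (SE 0.20, adjusted p = 0.0156), 0.76 with perchlorate (adjusted p = 0.0334) and 0.29 with the diet. The call with both was lost without control replicate 43, or without replicate 27 or 30 of the combined group. The perchlorate call was lost in 7 of 17 alternatives, among them the values as deposited and no filter. Ccnb2, cyclin B2, was also called with both (1.74, adjusted p = 0.0058).

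**Figure D3:**
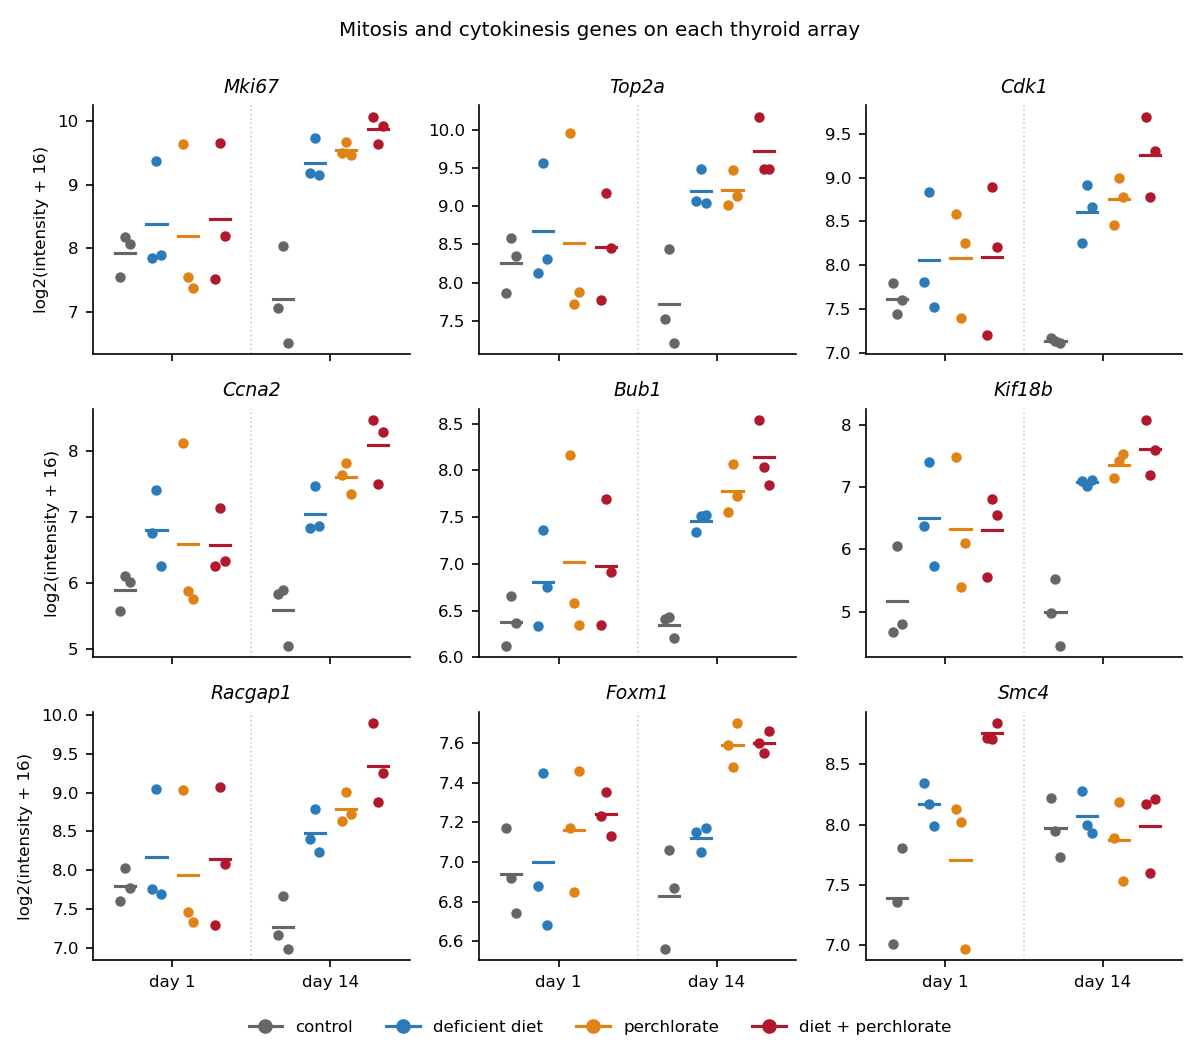
Points are the log2(intensity + 16) values of 9 members on each of the 24 arrays, and lines are group means, by regime (colour) and day. At day 14 Cdk1 runs from 7.12 to 7.17 in controls and from 8.78 to 9.69 with both treatments, whereas Smc4 has its highest values at day 1 with both treatments (8.71 to 8.84).

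Of 7 mitotic kinases measured, 6 were called with both treatments and 2 with perchlorate. Aurkb, the Aurora kinase of the chromosomal passenger complex, was at 6.59, 6.77 and 6.40 in controls and at 8.41, 8.0 and 8.11 with both, while perchlorate arrays lay within 7.53 to 7.57 and diet arrays within 7.41 to 7.79. The combined arrays thus stood above every other day 14 array. Aurkb differed by 1.59 with both (SE 0.33, 3-fold, adjusted p = 0.00342) and 0.97 with perchlorate (adjusted p = 0.117). Bub1, a checkpoint kinase of the kinetochore, was at 6.41, 6.43 and 6.21 in controls, 7.34, 7.51 and 7.52 with the diet, 7.55, 8.07 and 7.73 with perchlorate, and 8.54, 8.04 and 7.84 with both (1.79, adjusted p = 0.00374). With perchlorate Bub1 was called too, at 1.43 (adjusted p = 0.0339). That call was lost in 8 of 17 alternatives, among them the values as deposited and no filter.

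Plk1, the Polo kinase that acts from spindle assembly to cytokinesis, was the kinase without a call. Its controls ran from 6.50 to 7.31 and its combined arrays were at 8.53, 7.79 and 8.28, apart from the controls, a difference of 1.42 on the log2 scale (SE 0.46, adjusted p = 0.0604). The diet arrays, at 7.67, 7.75 and 6.88, overlapped the controls. Plk1 was spread widely in other groups too, from 6.26 to 8.31 in the diet arrays of day 1. Ttk, the kinase that starts the spindle checkpoint, was called with both (2.19, adjusted p = 0.00708) and with perchlorate (1.85, adjusted p = 0.041). Ttk passed the threshold only through treated arrays, as did Bub1b and Aurka, so their values are not a measure of the fold. Bub1b at 1.68, Plk4, which starts centriole duplication, at 1.14 and Aurka, the Aurora kinase of spindle poles, at 1.06 were called with both only, a difference between treatments that was not called by any direct test below.

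Of the 8 measured kinesins, 7 were called with both treatments and 5 with perchlorate. Kif18b, a motor that shortens astral microtubules, was at 4.98, 5.53 and 4.45 in the day 14 controls, at 7.10, 7.02 and 7.12 with the diet, at 7.14, 7.42 and 7.54 with perchlorate and at 8.08, 7.20 and 7.60 with both. The treated arrays lay above every control. The controls lie under the threshold of 6.19 and the gene passed only through treated arrays, so its log2 fold changes are differences on the log2(intensity + 16) scale and not a measure of the fold: 2.64 with both (adjusted p = 0.00127), 2.38 with perchlorate (adjusted p = 0.00644) and 2.09 with the diet (adjusted p = 0.06).

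Kif11, the motor that pushes spindle poles apart, was at 6.26, 6.82 and 6.07 in controls and at 8.48, 7.80 and 8.24 with both (1.79, adjusted p = 0.00433). Diet (7.55, 7.84, 7.54) and perchlorate (7.73, 7.89, 7.75) arrays of Kif11 were close together and above all controls. With perchlorate its log2 fold change was 1.41 (adjusted p = 0.0411), a call lost on the values as deposited, with another scaling, with no filter and without any 1 of the 6 arrays. Kif23, a motor of the midzone that recruits cytokinesis factors, was at 7.05, 7.40 and 6.52 in controls and at 9.48, 8.72 and 8.91 with both (2.05, adjusted p = 0.00294). Kif20b was called with both (1.89, adjusted p = 0.00299) and with perchlorate (1.73, adjusted p = 0.0125). It passed the threshold only through treated arrays, so its values carry the limit given for Kif18b. Its perchlorate call was lost in 2 of 16 alternatives, each a fit without 1 array. Kif22, a motor that pushes chromosome arms to the spindle equator, was also called with both and with perchlorate (1.61 and 1.29). Kif20a at 1.47 and Kif15 at 1.22 were called with both only, and Kif2c, which takes microtubule ends apart, at 0.58 was not called.

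For the spindle and cytokinesis genes, 6 of 7 were called with both and 1 with perchlorate. Prc1, which bundles the microtubules of the central spindle, was at 7.69, 8.21 and 7.48 in controls, 8.90, 9.30 and 8.96 with the diet, 9.15, 9.27 and 9.19 with perchlorate, and 10.17, 9.22 and 9.59 with both. All treated arrays of Prc1 lay above all controls. Its log2 fold change was 1.87 with both (SE 0.37, adjusted p = 0.00258) and 1.41 with perchlorate (adjusted p = 0.0351). The perchlorate call of Prc1 was lost in 8 of 17 alternatives, among them the values as deposited. Racgap1, which with Kif23 forms the centralspindlin complex, was at 7.16, 7.67 and 6.98 in controls and at 9.90, 8.88 and 9.25 with both (2.07, 4.21-fold, adjusted p = 0.00407). Racgap1 was at 8.63, 9.01 and 8.73 with perchlorate (1.51, adjusted p = 0.0582). Nusap1 (1.85), the spindle pole protein gene Aspm (1.83), Hmmr (1.31) and Dlgap5 (0.87) were also called with both.

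Ect2 was the member of that group without a call. It encodes the exchange factor that activates RhoA at the division plane, and its controls were at 9.76, 9.76 and 10.00. With both treatments Ect2 was at 10.50, 9.93 and 10.20, overlapping the controls, a log2 fold change of 0.37 with a 95% interval of -0.07 to 0.81.

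All 7 measured kinetochore and centromere genes were called with both treatments and 0 with perchlorate alone. Cenpf, a large kinetochore protein, was at 7.60, 7.70 and 7.44 in controls and at 9.75, 8.67 and 9.43 with both (1.70, adjusted p = 0.00363). Cenpf was at 8.34, 8.95 and 8.52 with perchlorate and at 8.10, 8.69 and 8.07 with the diet, each above every control. The Ndc80 complex, which grips microtubules, was represented by Spc25 (2.19 with both, adjusted p = 0.00507), Nuf2 (1.35) and Spc24 (1.32). Spc25 stood at 1.70 with perchlorate (adjusted p = 0.05 after rounding, not called). Cenpk (1.30), Cdca8 (1.10) and the survivin gene Birc5 (0.84), the last a passenger complex subunit like Cdca8, had smaller differences.

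Checkpoint and anaphase genes split. Called with both were Cdca3 (2.01), the ubiquitin conjugating enzyme Ube2c (1.57), which works with the anaphase promoting complex, and its activator Cdc20 (1.55), and 0 were called with perchlorate. The others were not called with both: the securin gene Pttg1, at 1.24 with an interval of -0.15 to 2.63; Espl1, the separase that cuts cohesin, at 0.66; and Mad2l1, a checkpoint protein, at 0.38. Pttg1 varied widely within groups, at 6.92, 5.27 and 6.06 in the day 14 controls and at 5.38, 7.86 and 7.35 with the diet.

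Among genes of chromosome structure, the proliferation marker Mki67 had a log2 fold change of 2.68 with both treatments (SE 0.54, 6.39-fold, adjusted p = 0.00298). Controls of Mki67 were at 7.06, 8.04 and 6.51 and combined arrays at 10.07, 9.64 and 9.92. The perchlorate arrays, at 9.50, 9.67 and 9.47 (2.35, 5.08-fold, adjusted p = 0.0158), and the diet arrays, at 9.18, 9.73 and 9.15 (2.15, adjusted p = 0.0897), lay above every control. The perchlorate call of Mki67 was lost in 4 of 17 alternatives, each a fit without 1 array. Top2a, the topoisomerase that untangles chromosomes, was at 7.52, 8.44 and 7.21 in controls, 9.07, 9.49 and 9.04 with the diet, 9.02, 9.47 and 9.13 with perchlorate, and 10.17, 9.49 and 9.49 with both. The treated arrays of Top2a lay above every control and overlapped each other, and the log2 fold change with both was 2.00 (adjusted p = 0.0103), a call lost without control replicate 47 or without replicate 27. A second probe set of Top2a gave 2.35 (adjusted p = 0.00317). Other probe sets of called members did not all follow. With both treatments, further passing ones of Cdc20 (1.26) and Nusap1 (1.41) were called. Those below the threshold were fitted without the filter. Of these, Ttk (1.63) and Racgap1 (0.89) were called, but Kif23 (-0.26), Kif11 (0.47), Hmmr (0.56), Foxm1 (0.59) and Cdc20 (0.15 to 0.98) were not.

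The condensin genes differed from those: Ncapg2 was at 0.72, Smc2 at 0.56 and Smc4 at 0.03 with both treatments at day 14, and 0 of the 3 were called. Smc4 encodes a core subunit of both condensins. At day 14 its arrays were at 8.22, 7.95 and 7.73 in controls and at 8.17, 7.60 and 8.21 with both, overlapping, and the interval of the difference was -0.52 to 0.58. Of the genes below the signal threshold, fitted without the filter, Parpbp was at 2.25 (adjusted p = 0.00335), Pimreg at 1.55 (adjusted p = 0.018) and Cenpe, a kinetochore motor, at 1.18 (adjusted p = 0.101) with both treatments.

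**Figure D4:**
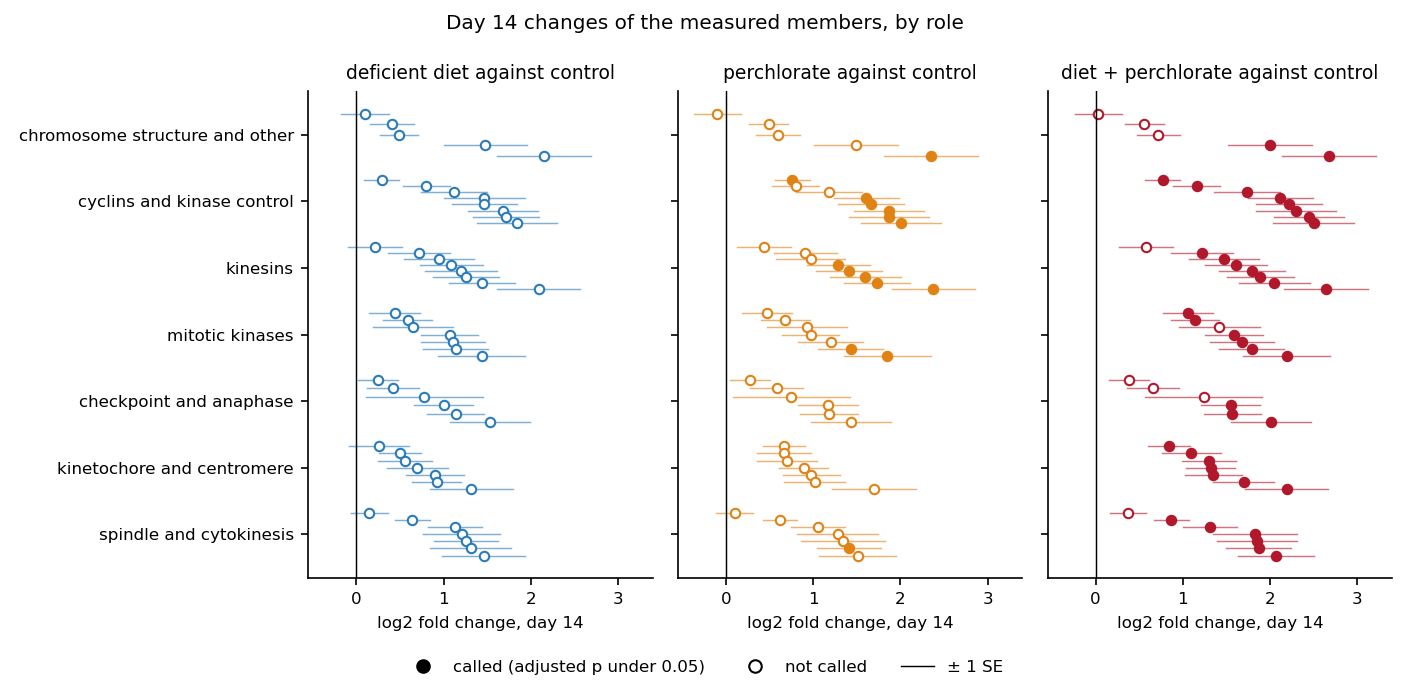
Log2 fold changes against the day 14 control (horizontal axis) for the 48 measured members, by role (vertical axis), with bars of 1 SE, filled where called. With both treatments 39 are filled, with perchlorate 15 and with the deficient diet 0, and the lowest points with both are Smc4, Ect2 and Mad2l1.

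Direct comparisons between treatments at day 14 called 0 of the 48 members. Perchlorate added to the diet had a median log2 difference of 0.52, positive in 47 members. In that comparison 17 members did not overlap (11.7% of probe sets), and 0.129% of probe sets were called higher. An unadjusted limma p under 0.05 was found for 6 members and for 1482 of all 18625 probe sets. The smallest p-values there were those of Cenpf (1.00, adjusted p = 0.368), Cdca8 (0.83) and Foxm1 (0.48). The diet added to perchlorate had a median of 0.41, positive in all 48, with 7 not overlapping (5.9% of probe sets) and 0% of probe sets called higher. Aurka (0.59), Cenpk (0.63) and Cenpf (0.68) led it, each at an adjusted p of 1. None of the 48 had an unadjusted p under 0.05, against 483 of all 18625 probe sets.

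The diet alone and perchlorate alone differed by a median of -0.12, and perchlorate had the higher mean in 36 members. No member was called and 1 probe set in all was (0.00537%). An unadjusted limma p under 0.05 was found for 1 member and for 693 of all 18625 probe sets. Foxm1 had the smallest p-value (-0.47, interval -0.88 to -0.06, adjusted p = 0.999), followed by Cdca8 (-0.44) and Ccna2 (-0.55). Typical intervals reached 0.76 either side, so differences of that size between the treatments were not resolved. Set against the sum of the separate effects on the log2 scale, the combined effect was smaller in 43 members and larger in 5, with a median difference of -0.59. That interaction called 0 members (0% of probe sets were called higher and 0.0161% lower). Kif18b (-1.83), Mki67 (-1.82) and Kif20b (-1.28) had the smallest p-values, each at an adjusted p of 1. Of these, Kif18b and Kif20b passed the threshold only through treated arrays, so their interaction values are not a measure of the fold. In the interaction 5 members had an unadjusted p under 0.05, as did 580 of all 18625 probe sets.

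At day 1 the arrays of each treated group were uneven. With the diet 0 of the 48 members were called (0.043% of probe sets called higher), with perchlorate 0 (0%) and with both 1 (0.446%), and the medians were 0.36, 0.25 and 0.32. Unadjusted limma p-values were under 0.05 for 3, 3 and 2 members. Of all 18625 probe sets they were under 0.05 for 1090, 1888 and 1975. Treated arrays lay above all controls in 5, 1 and 4 members, against 5.79%, 2.92% and 7.94% of probe sets. The genes with the smallest p-values were Smc4 (0.78), Birc5 (0.68) and Kif18b (1.32) with the diet, and Birc5 (0.63), Kif18b (1.15) and Espl1 (0.67) with perchlorate. With both they were Smc4, Kif18b (1.13) and Hmmr (0.63). Kif18b and Espl1 passed the threshold only through treated arrays, so their values are not a measure of the fold.

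In each treated group of day 1, 1 array was high across the members. The mean of the 48 was 8.15 in diet replicate 9 against 7.25 and 7.17 in its group, 8.17 in perchlorate replicate 15 against 7.05 and 7.15, and 8.12 in diet plus perchlorate replicate 3 against 6.99 and 7.53. The controls of day 1 lay at 7.09, 7.30 and 7.17. Above all 3 day 1 controls were 48 members in replicate 9, 46 in replicate 15 and 44 in replicate 3. In replicate 6 of the combined group it was 27, and in the other treated arrays of day 1 it was 5 to 16. How many of all probe sets lay above those controls on each array is not given here, so these counts lack a scale. The member means of replicates 9, 15 and 3 were just above those of the day 14 diet arrays, 7.71 to 8.05. Mki67 shows it: 7.85, 9.37 and 7.90 with the diet, 9.64, 7.54 and 7.38 with perchlorate, and 7.52, 9.66 and 8.20 with both, against 7.54, 8.18 and 8.07 in controls.

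Other lists did not all follow those arrays. In perchlorate replicate 15 the thymocyte and lymphocyte markers were at 10.57 too, against 6.92 and 8.96 in its group, and Cd8a was at 10.12 against 4.30 and 7.12; their part in the member values of that array was not tested. In diet replicate 9 and combined replicate 3 those markers were not high: the ranges of their groups were 6.85 to 7.15 and 7.13 to 7.32, and those of the day 1 controls 7.04 to 7.31. The 41 measured genes of DNA replication were at 8.10, 8.39 and 7.76 in diet replicates 8, 9 and 12 and at 8.47, 7.84 and 8.21 in perchlorate replicates 15, 16 and 18, against 7.88 to 7.99 in controls. Diet replicate 8 and perchlorate replicate 18 thus lay above every day 1 control for these genes, with member means of 7.25 and 7.15 against 7.09 to 7.30 in controls. In the combined group their highest array was at 8.01.

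**Figure D5:**
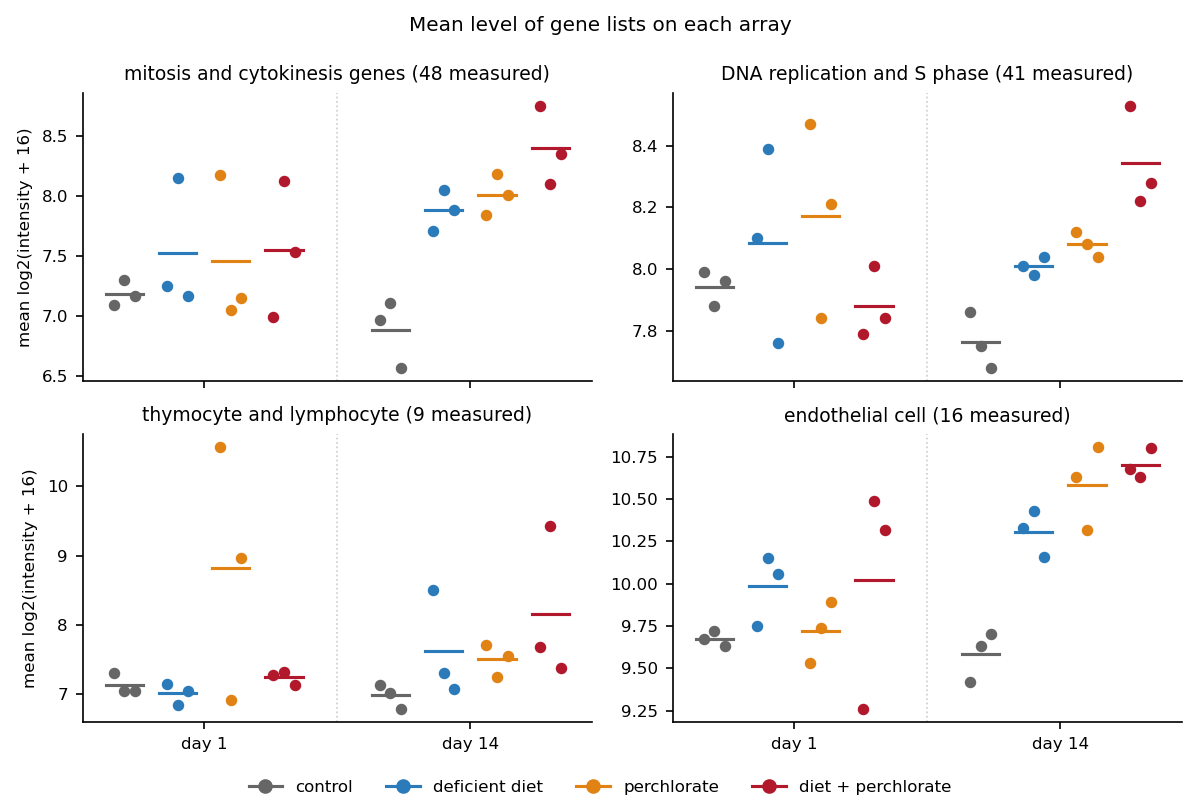
Mean log2(intensity + 16) of 4 gene lists on each of the 24 arrays (points; lines are group means), by regime and day. The members separate the day 14 treated arrays (7.71 to 8.75) from the day 14 controls (6.57 to 7.11). In each treated group of day 1 they show 1 array above the others (8.12 to 8.17). The thymocyte and lymphocyte list reaches 10.57 in a day 1 perchlorate array.

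Smc4 was the member called at day 1. It was at 8.72, 8.71 and 8.84 with both treatments, at 8.34, 8.17 and 7.99 with the diet, at 8.13, 8.02 and 6.97 with perchlorate and at 7.01, 7.36 and 7.81 in controls, so the combined and diet arrays lay above all controls. The log2 fold change with both was 1.36 (SE 0.27, adjusted p = 0.0141). A second probe set of Smc4 that passed the threshold gave -0.02 (SE 0.32), and with the mean of its probe sets the call was lost. It was lost also in a fit of only those groups, without control replicate 21 or 22 and without replicate 3 or 6 of the combined group. On the diet, perchlorate for 1 day called 0 members (0% of probe sets higher). There 2 members had an unadjusted p under 0.05, as did 1087 of all 18625 probe sets. Mad2l1 (-0.59), Smc4 (0.59) and Birc5 (-0.35) had the smallest p-values in that comparison.

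Averaged over the 2 days, the diet comparison called 2 of the 48 members (0.8% of probe sets called higher), Kif18b at 1.71 (SE 0.34, adjusted p = 0.0167) and Cdkn3 at 1.12 (adjusted p = 0.0475), and Kif20b followed at 1.00 (adjusted p = 0.0784). All 48 differences were positive, with a median of 0.60. Kif18b and Kif20b passed the threshold only through treated arrays, so their values are not a measure of the fold. With the filter on the control arrays alone, 0 members were called (0.677% of probe sets called higher). The Cdkn3 call was lost in 15 of 21 alternatives. The count was 11 in a fit of only those groups (1.95% of probe sets called higher). It was 0 without control replicate 22 of day 1, without control replicate 47 of day 14 or without diet replicate 9 of day 1. Without any other array it was 1 or 2. The share of all probe sets called in the fits without single arrays is not given here.

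The change from day 1 to day 14, taken against the controls of each day, called 0 members for perchlorate (0.489% of probe sets called higher), for both treatments (0%) and for the diet (0%). Medians were 0.85, 1.25 and 0.76, and 18, 33 and 6 members had an unadjusted limma p under 0.05. Of all 18625 probe sets, 2294, 1625 and 502 had such a p. Melk led for perchlorate (1.97, adjusted p = 0.115), with Kif20b (1.61) and Mki67 (2.09), and Melk (2.15, adjusted p = 0.205), Spc24 (1.44) and Smc4 (-1.34) for both treatments. Kif22 (1.16), Spc24 (0.90) and Cdkn3 (1.21) led for the diet. Of the genes named here, Kif20b passed the threshold only through treated arrays, so its value is not a measure of the fold. Without perchlorate replicate 15 of day 1, the high array described above, 7 members were called for perchlorate. The share of all probe sets in that fit is not given here.

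The controls themselves were lower at day 14 than at day 1 in 44 of the 48 members, with a median of -0.32. None was called, and 0 probe sets were called in either direction. An unadjusted p under 0.05 was found for 1 member, against 765 of all 18625 probe sets. In 10 members the day 14 controls lay below all day 1 controls (4.36% of probe sets). Smc4 (0.58), Ccnb1 (-0.55) and Kif22 (-0.68) had the smallest p-values. Control replicate 47 held the lowest value of its group in 38 members, with a member mean of 6.57 against 6.97 and 7.11. The share of all probe sets with their lowest value there is not given here. Against the 6 controls of both days, an alternative added later, the day 14 medians were 1.31 with both, 0.89 with perchlorate and 0.84 with the diet. The counts were 39, 15 and 2, and the shares of all probe sets called in that fit are not given here.

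Within the combined group of day 14 the arrays were graded. The member mean was 8.75 in replicate 27, 8.35 in replicate 30 and 8.10 in replicate 29. Replicate 27 held the highest value of all 24 arrays in 38 members, and replicate 29 the lowest of its group in 39. How often this held over all probe sets is not given here. The thymocyte and lymphocyte markers were high in replicate 29 (9.43) and not in replicate 27, since the other arrays of that group lay at 7.38 and 7.68.

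Other genes of the same process, from lists chosen with results of these data known, give a scale for the members. Over all probe sets, 6.1% were called higher with both treatments at day 14, 2.9% with perchlorate and 0.193% with the diet. Of 51 further mitotic genes 15 were called higher with both treatments at day 14, 4 with perchlorate and 0 with the diet, with medians of 0.44, 0.41 and 0.29. They included the centromere genes Cenpi (1.60) and Cenpw (1.81), Depdc1 (2.18) and Cks2 (1.98), whose product binds cyclin-dependent kinases. Of 41 DNA replication and S phase genes 11 were called higher with both, 1 with perchlorate and 0 with the diet, with medians of 0.51, 0.22 and 0.18. Gins1 (1.49) and the helicase subunits Mcm3 (1.15) and Mcm5 (1.14) and the chromatin assembly factor Chaf1a (1.13) were among them. In the same comparison the member median was 1.58. With perchlorate alone, the S phase count was near the share of all probe sets.

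Genes that restrain the cycle were mostly not called: with both treatments 2 of 18 were called higher, where 6.1% of all probe sets were. These were the stress gene Gadd45b (1.10, adjusted p = 0.00141) and Cdkn2c, an inhibitor of the G1 kinases Cdk4 and Cdk6 (0.86, adjusted p = 0.00735). The median of the 18 was 0.13.

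Markers of cells other than follicular cells differed from controls at day 14 in both directions. With both treatments 11 of 16 endothelial, 11 of 16 fibroblast and mural and 11 of 17 macrophage and mast cell markers were called higher, with medians of 0.96, 1.20 and 1.26. With perchlorate 8, 8 and 6 were called higher. Over all probe sets 6.1% were called higher with both treatments and 2.9% with perchlorate. The mean of the endothelial markers ran from 10.63 to 10.80 with both and from 9.42 to 9.70 in controls, that of the fibroblast markers from 10.30 to 10.75 and from 9.33 to 9.48, and that of the macrophage markers from 8.73 to 9.33 and from 7.50 to 7.89. Of the 10 follicular cell markers 1 was called higher, the sodium iodide symporter gene Slc5a5 (1.70), and 1 lower, Foxe1 (-0.51), with means of 11.83 to 11.97 against 11.75 to 11.91. The 9 measured thymocyte and lymphocyte markers all had positive log2 fold changes with both (median 1.02), without a call. Of 8 C cell markers 4 were called lower, with a median of -1.22, and of 3 parathyroid markers 1, the calcium-sensing receptor gene Casr (-1.81), with a median of -1.46. The adipocyte markers, also without a call, had a median of -1.30 with 1 of 10 positive, and the skeletal muscle markers a median of -0.08 with 5 of 11 positive. Which cells carried the mitotic messages was not tested, and the part of these other cells in the member values was not tested either.

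The motifs shown at the start were set beside the calls as a description. Among 33 measured members with a window that were called with both treatments, 63.6% had TTTGAA near the start, and among the 9 not called 66.7% had it. At least 2 CCAAT boxes were present in 60.6% and 22.2%, the latter 2 of 9 genes. Outside the members, 157 measured genes had both motifs, and 13 of them (8.28%) were called higher with both treatments, against 6.73% of 8785 measured genes with a window. Their median log2 fold change was -0.05, against -0.07. Without the genes of the other mitotic and S phase lists, 7 of 144 (4.86%) were called higher, with a median of -0.08.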

How the data were processed

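Thyroid RNA from 24 samples was measured on 24 Affymetrix arrays. The authors deposited 1 linear intensity per probe set and array, made in GCOS (per the submitters' processing notes); its version, settings and scaling target are not given in the sources used here. Detection calls were not used here, so signal over background is unknown; precision is limited by the number of arrays. Gene names came from the platform annotation, under which 20826 probe sets had 1 symbol, 436 several and 9780 none. The 57 control probe sets of the array were left out.

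Values were taken as log2(intensity + 16) of the deposited table and quantile normalized, since array medians spanned 6.63 to 7.19. Dim probe sets, under the 40th percentile by mean signal, were dropped, and 18625 of 31042 were tested with limma 3.58.1 in R 4.3.3: 1 mean per group over all 24 arrays, eBayes with a trend in the variance, and two-sided p-values adjusted by Benjamini-Hochberg within each of 16 comparisons. SE is of the log2 fold change, which is on the log2(intensity + 16) scale. The labels give no batch, and sample numbers are not shared between groups. The members and gene lists were chosen with earlier results of these data known.

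Members named singly are 10 core genes (Mki67, Top2a, Cdk1, Ccnb1, Aurkb, Plk1, Bub1, Kif11, Racgap1, Foxm1), those called in a main day 14 comparison (at most 12 each, by p) and the 3 with the smallest p elsewhere; from other lists, at most 4 called genes. Other names, given to account for the list, were chosen after their values were seen. Alternatives covered scaling, the value added before log2, the filter, the choice of probe set, the arrays in the fit, quality weights and leaving out each array. The limma script was tested on simulated data. Promoter sequences are RefSeq's, GRCr8.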

Additional observations from a re-analysis of the deposited data

How the results depend on the processing

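Median log2 fold changes of the members moved by less than the spread of the member mean within groups (0.40) in all but 1 of 286 values under alternatives: for both treatments from day 1 to day 14 the median was 0.82 with no control subtracted, against 1.25. No value of a named member changed sign. Of 34 named calls 16 held under every alternative run, and 243 of 286 counts of called members stayed within 1.5 times. The counts that did not are these. Percentages in brackets are shares of all probe sets called higher, given for some settings only. For the diet at day 14 (0 called, 0.193%), the count was 26 with only the groups compared (2.02%) and 27 with only the 12 arrays of day 14 (2.67%). It was 21 with quality weights (3.34%), 3 without the pair of lowest weight (0.859%) and 2 against the controls of both days. For the diet over both days (2, 0.8%), it was 1 with trimmed-mean scaling, with 64 added and with no filter (0.312% for the last). It was 0 with the filter on controls (0.677%), 11 with only the groups compared (1.95%), 15 with weights (4.37%), and 0 to 2 without single arrays. For perchlorate at day 14 (15, 2.9%), it was 9 on the values as deposited and 8 with no filter (1.41%). It was 32 with only the groups compared (4.77%), 36 with only day 14 arrays (6.49%), 34 with weights (6.24%), and 1 to 13 without single arrays. For both treatments at day 1 (1), it was 0 with the mean of probe sets and with only the groups compared, and 0 to 1 without single arrays; at day 14 (39) it was 23 to 37 without single arrays. Weights gave 1 for perchlorate on the diet at day 14, 1 for perchlorate and 6 for both treatments from day 1 to day 14, each 0 otherwise, and perchlorate from day 1 to day 14 gave 0 to 7 without single arrays. Why the fits with fewer arrays call more members was not tested; the weights' fit stopped before it converged. On the values as deposited the median of all probe sets shifted by -0.22 to 0.20 between comparisons.

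No paired analysis was possible because the groups share no sample numbers.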
